A study of Mus musculus with 4 samples.

Results

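The 10 genes described here encode checkpoint and costimulatory ligands, the surface or secreted proteins through which tumor, stromal and antigen-presenting cells restrain or assist T cells and NK cells. They were taken by symbol (Cd274, Pdcd1lg2, Cd80, Cd86, Cd276, Lgals9, Pvr, Nectin2, Vsir and Icosl) from a single-cell RNA sequencing count matrix of 32285 genes, and all 10 were present. The tumors were grown under the skin of C57BL/6 mice from MC38 cells, a mouse colon adenocarcinoma line, and the 4 libraries were tumors with wild-type Rac1 (WT) from mice given isotype control IgG, WT tumors from mice given a PD-1 blocking antibody (anti-PD1), and tumors whose cancer cells carry the Rac1 A159V substitution (A159V), again with IgG or with anti-PD1. The study made homozygous knock-in cells as several clones and presents data of 1 clone unless it says otherwise, so in these libraries the substitution and a clone cannot be told apart. Each group was 1 library, and the number of mice behind a library was not given in the sources used here, so no difference between groups could be tested and none has a replicate check.

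The libraries held 7802, 7430, 8685 and 9311 cell barcodes, giving WT before A159V and IgG before anti-PD1 as in every list of 4 libraries here, with 54402632 to 125227747 unique molecular identifiers (UMIs, each 1 counted RNA molecule) per library. After removal of cells with at most 500 genes and of predicted doublets, 6867, 6466, 7603 and 8248 cells were analysed, and any pair of libraries shared 13 to 22 barcodes. Leukocytes (CD45+) and other cells had been sorted on beads and pooled again before loading, so cell shares carry that step. Cells were clustered without the 10 ligands, and each cluster was named from RNA markers only, hence the suffix "-like". Tumor-like cells numbered 2029 and 3 in the WT tumors with IgG and anti-PD1, and 2804 and 2099 in the A159V tumors. In WT anti-PD1, the 3267 UMIs of these 3 cells held 1 Cd274 UMI and 0 of the other 9 ligands, and no tumor-like level is given for that library. The tumor-like name rests on few detected markers, among them Rhox5, Prl2c2 and Prl2c3 (with Rhox5 at 952 to 1102 CPM, the UMIs of a gene for every 1000000 UMIs), while the epithelial markers Krt8, Krt18, Krt19, Epcam and Cdh1 were each under 1 CPM. Macrophage-like cells numbered 3015, 1940, 2857 and 3772, dendritic-like cells 350, 300, 347 and 403, and stromal-like cells 134, 1608, 178 and 161 in the same order. Cluster 4 of the macrophage-like cells, led by Retnla, Mrc1 and Arg1, held 81.8% of those in WT anti-PD1 and took 74.1% of its own cells from that library, and the stromal-like cells came mostly from that library too.

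Cd274 (PD-L1) and Pdcd1lg2 (PD-L2) bind PD-1 on activated T cells and dampen signalling through the T cell receptor. Cd80 and Cd86 bind CD28, which costimulates T cells, and the inhibitory receptor CTLA-4, and they are hallmarks of activated antigen-presenting cells. Pvr and Nectin2 bind the inhibitory receptor TIGIT and the activating receptor CD226 on T and NK cells, Lgals9 encodes galectin-9, a ligand of TIM-3 (Havcr2), Vsir encodes the inhibitory protein VISTA, Cd276 encodes B7-H3, and Icosl is the ligand of the costimulatory receptor ICOS.

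On the mm10 annotation, Cd274 lies on chromosome 19 from 29367455 to 29388095 and Pdcd1lg2 on the same strand from 29410919 to 29471161, with 22823 bases and 0 annotated genes between them. Cd80 (38455561 to 38496335) and Cd86 (36603869 to 36666081) both lie on chromosome 16, and Nectin2 (19716644 to 19750483) and Pvr (19903578 to 19921160) both lie on the minus strand of chromosome 7. Vsir (60346851 to 60372684) and Icosl (78069302 to 78083913) lie on chromosome 10, and Vsir sits within Cdh23 on the opposite strand. Cd276 lies on chromosome 9 (58524298 to 58555437) and Lgals9 on chromosome 11 (78962974 to 78984946), both on the minus strand. The RefSeq promoter table, on GRCm38.p6, matched 8 of the 10 genes, with Cd86 and Pvr as the exceptions. Its start sites are not those of the annotation above. The Cd80 window ends at 38458932, inside the annotated gene that starts at 38455561, and the Cd276 and Nectin2 windows also lie inside their annotated genes. The 250 bases before the start site are shown for the neighbouring PD-1 ligands Cd274 (chr19:29367188-29367437, plus strand) and Pdcd1lg2 (chr19:29410669-29410918, plus strand), because they are adjacent and bind the same receptor, and for Cd80 (chr16:38458683-38458932, plus strand) and Lgals9 (chr11:78984925-78985174, minus strand), because they held the motif matches. Capitals mark the match to an AP-1 motif in Cd80 and to an interferon-stimulated response element in Lgals9, read on the reverse strand.

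Cd274: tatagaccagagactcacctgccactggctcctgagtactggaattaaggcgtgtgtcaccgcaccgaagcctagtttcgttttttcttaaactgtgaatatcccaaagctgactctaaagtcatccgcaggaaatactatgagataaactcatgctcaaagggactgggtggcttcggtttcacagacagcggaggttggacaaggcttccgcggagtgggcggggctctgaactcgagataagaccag
Pdcd1lg2: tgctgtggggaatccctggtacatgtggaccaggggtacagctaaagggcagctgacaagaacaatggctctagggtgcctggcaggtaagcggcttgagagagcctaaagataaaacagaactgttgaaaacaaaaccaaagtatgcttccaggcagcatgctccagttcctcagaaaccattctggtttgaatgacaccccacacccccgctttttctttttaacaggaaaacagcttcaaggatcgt
Cd80: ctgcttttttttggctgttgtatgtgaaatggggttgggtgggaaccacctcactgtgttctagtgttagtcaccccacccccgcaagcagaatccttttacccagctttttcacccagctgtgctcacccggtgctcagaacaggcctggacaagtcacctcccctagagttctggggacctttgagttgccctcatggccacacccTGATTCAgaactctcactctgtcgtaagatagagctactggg
Lgals9: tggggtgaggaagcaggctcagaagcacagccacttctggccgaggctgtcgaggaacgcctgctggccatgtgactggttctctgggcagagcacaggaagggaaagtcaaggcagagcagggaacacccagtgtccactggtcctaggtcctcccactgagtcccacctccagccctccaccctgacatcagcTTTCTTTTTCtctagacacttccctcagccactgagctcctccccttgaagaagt

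On both strands of the window from 250 bases before to 50 after the start, the NF-kB motif (GGG, any 2 bases, TTTCC) was found in 0 of the 8 promoters (1.63% of 32851 promoters hold it). The AP-1 motif TGANTCA was found in Cd80 alone, 42 to 36 bases before the RefSeq start and so inside the annotated gene (7.81% of promoters). The interferon-response motif (GAAA, any 2 bases, GAAA) was found in Lgals9 alone, 55 to 46 bases before the RefSeq start and again 15 to 24 bases after it (3.44%). A match is a description of letters in this window and not evidence of a bound site. The 250 bases of Cd274 held 11 CpG dinucleotides against 3 in those of Pdcd1lg2, at 50.4% and 48.4% G or C, and Cd276 had the most with 29.

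The first question was which cells carried each ligand. Of tumor-like, macrophage-like, dendritic-like and stromal-like cells, the macrophage-like and dendritic-like cells had the highest Cd274, Cd80 and Cd86, stromal-like cells had the highest Cd276 and Nectin2, and tumor-like cells had low levels of most ligands but Cd274, Lgals9, Pvr and Nectin2 above 10 CPM. Among these 4 classes, dendritic-like cells were highest for Pdcd1lg2, Cd80, Cd86, Pvr and Icosl in 4 of 4 libraries. Stromal-like cells were highest for Cd276 and Nectin2 in 4 of 4, and macrophage-like cells for Lgals9 and Vsir in 4 of 4. Outside these classes, neutrophil-like cells had 236 to 388 CPM of Cd80 and 55.6 to 225 CPM of Pdcd1lg2. These levels are summed UMIs of a ligand over all UMIs of a class in a library, with exact Poisson 95% intervals that cover counting error only, and levels are compared within a gene, not between genes. In such sums fewer expressing cells and less RNA per cell cannot be told apart.

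Cd274 in macrophage-like cells was 669 CPM (653 to 685) with IgG and 500.2 (486 to 515) with anti-PD1 in WT tumors, and 779 (757 to 801) with IgG and 893 (876 to 910.2) with anti-PD1 in A159V tumors. In dendritic-like cells it was 609 CPM (570.5 to 649) with IgG and 473 (445 to 502) with anti-PD1 in WT tumors, and 849.6 (792 to 909.7) with IgG and 887 (841 to 935) with anti-PD1 in A159V tumors. The order of these 2 classes was not the same in each library: in WT IgG macrophage-like cells were above, and in the other 3 libraries the intervals overlapped, in A159V IgG only narrowly. Tumor-like cells had 42.8 CPM (41.2 to 44.4) with IgG in WT tumors, and 26.9 (25.8 to 28.0) with IgG and 42.3 (40.9 to 43.6) with anti-PD1 in A159V tumors, a Cd274 difference of -4.81 to -3.94 on the log2 scale against macrophage-like cells of the same library. Stromal-like cells had 21.8 CPM with IgG and 10.8 with anti-PD1 in WT tumors, and 26.7 with IgG and 17.0 with anti-PD1 in A159V tumors, the lowest of the classes with a value in each library, although in A159V IgG the interval overlapped that of tumor-like cells.

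Pdcd1lg2, the other PD-1 ligand, was 105 CPM (89.6 to 123) with IgG and 188 (170.3 to 206) with anti-PD1 in WT tumors, and 125 (104 to 149) with IgG and 192 (171 to 215) with anti-PD1 in A159V tumors in dendritic-like cells. In macrophage-like cells it was 20.6 CPM (17.9 to 23.6) with IgG and 141 (134 to 149) with anti-PD1 in WT tumors, and 21.0 (17.5 to 24.8) with IgG and 28.1 (25.2 to 31.3) with anti-PD1 in A159V tumors, so that the WT anti-PD1 library stood far above the other 3. Tumor-like cells had at most 0.296 CPM, and after thinning each cell to 1500 UMIs a Pdcd1lg2 UMI was found in 0 to 0.0358% of them. Over 29 profiles of a class in a library, which share libraries and cell classes, the log2 levels of the neighbouring genes correlated with a Pearson r of 0.785.

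Cd86, the earlier of the CD28 ligands to appear on activated antigen-presenting cells, was 1125 CPM (1073 to 1179) with IgG and 1008 (967 to 1049.7) with anti-PD1 in WT tumors, and 796 (741 to 854) with IgG and 1168 (1115 to 1222) with anti-PD1 in A159V tumors in dendritic-like cells. In macrophage-like cells Cd86 was 917 CPM (898 to 936) with IgG and 399 (386 to 412) with anti-PD1 in WT tumors, and 651 (631 to 671) with IgG and 733 (718 to 749) with anti-PD1 in A159V tumors. The WT anti-PD1 library was lowest for macrophage-like Cd86, and A159V IgG for dendritic-like Cd86. Cd80 was 213 CPM with IgG and 156 with anti-PD1 in WT tumors, and 306 with IgG and 251 with anti-PD1 in A159V tumors in dendritic-like cells. In macrophage-like cells Cd80 was 124 CPM with IgG and 44.6 with anti-PD1 in WT tumors, and 125 with IgG and 108 with anti-PD1 in A159V tumors, again lowest in WT anti-PD1. Dendritic-like cells were above macrophage-like cells by 0.78 to 1.79 (log2) for Cd80 and 0.29 to 1.33 for Cd86. In tumor-like cells the levels were 0.775 to 2.88 CPM for Cd86 and 1.04 to 1.34 CPM for Cd80.

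Cd276 was 80.3 CPM (68.5 to 93.5) with IgG and 90.4 (86.7 to 94.2) with anti-PD1 in WT tumors, and 67.8 (56.1 to 81.3) with IgG and 76.6 (64.8 to 89.98) with anti-PD1 in A159V tumors in stromal-like cells, with intervals that overlapped for all pairs of libraries except WT anti-PD1 and A159V IgG. In tumor-like cells it was 6.39 CPM with IgG in WT tumors, and 7.05 with IgG and 8.05 with anti-PD1 in A159V tumors. In macrophage-like cells it was 15.7 CPM with IgG and 3.03 with anti-PD1 in WT tumors, and 16.9 with IgG and 10.9 with anti-PD1 in A159V tumors, below the stromal-like level in each library. Nectin2, an adhesion molecule as well as an NK cell ligand, was 35.3 CPM with IgG and 21.2 with anti-PD1 in WT tumors, and 41.2 with IgG and 46.3 with anti-PD1 in A159V tumors in stromal-like cells. In tumor-like cells it was 18.1 CPM with IgG in WT tumors, and 19.8 with IgG and 23.3 with anti-PD1 in A159V tumors, against 4.17 to 8.23 CPM in macrophage-like cells. Nectin2 was thus the ligand for which tumor-like cells exceeded macrophage-like cells, by 1.82 to 1.88 (log2) in the 3 libraries with a value. Pvr, which shares receptors with Nectin2, was 26.7 CPM with IgG in WT tumors, and 29.8 with IgG and 35.3 with anti-PD1 in A159V tumors in tumor-like cells. In dendritic-like cells Pvr was 69.0 CPM with IgG and 63.0 with anti-PD1 in WT tumors, and 68.2 with IgG and 80.9 with anti-PD1 in A159V tumors, macrophage-like cells had 35.6 to 47.1 CPM and stromal-like cells 11.5 to 26.7 CPM, the lowest of the classes with a value in each library.

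Lgals9 was 273 CPM with IgG and 135 with anti-PD1 in WT tumors, and 260.3 with IgG and 215 with anti-PD1 in A159V tumors in macrophage-like cells. In stromal-like cells it was 179.9 CPM with IgG and 99.2 with anti-PD1 in WT tumors, and 162 with IgG and 156 with anti-PD1 in A159V tumors, and in dendritic-like cells 152 CPM with IgG and 40.4 with anti-PD1 in WT tumors, and 129 with IgG and 119 with anti-PD1 in A159V tumors. In each of these 3 classes the WT anti-PD1 library had the lowest Lgals9 level. Tumor-like cells had 75.7 CPM with IgG in WT tumors, and 61.4 with IgG and 66.3 with anti-PD1 in A159V tumors. Vsir was 132 CPM with IgG and 120.1 with anti-PD1 in WT tumors, and 153 with IgG and 140.2 with anti-PD1 in A159V tumors in macrophage-like cells, with the highest library 1.27-fold above the lowest, and at most 1.52 CPM in tumor-like cells. Icosl was 36.8 CPM with IgG and 47.8 with anti-PD1 in WT tumors, and 56.8 with IgG and 37.9 with anti-PD1 in A159V tumors in dendritic-like cells and at most 10.7 CPM in the other 3 classes.

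**Figure D1:**
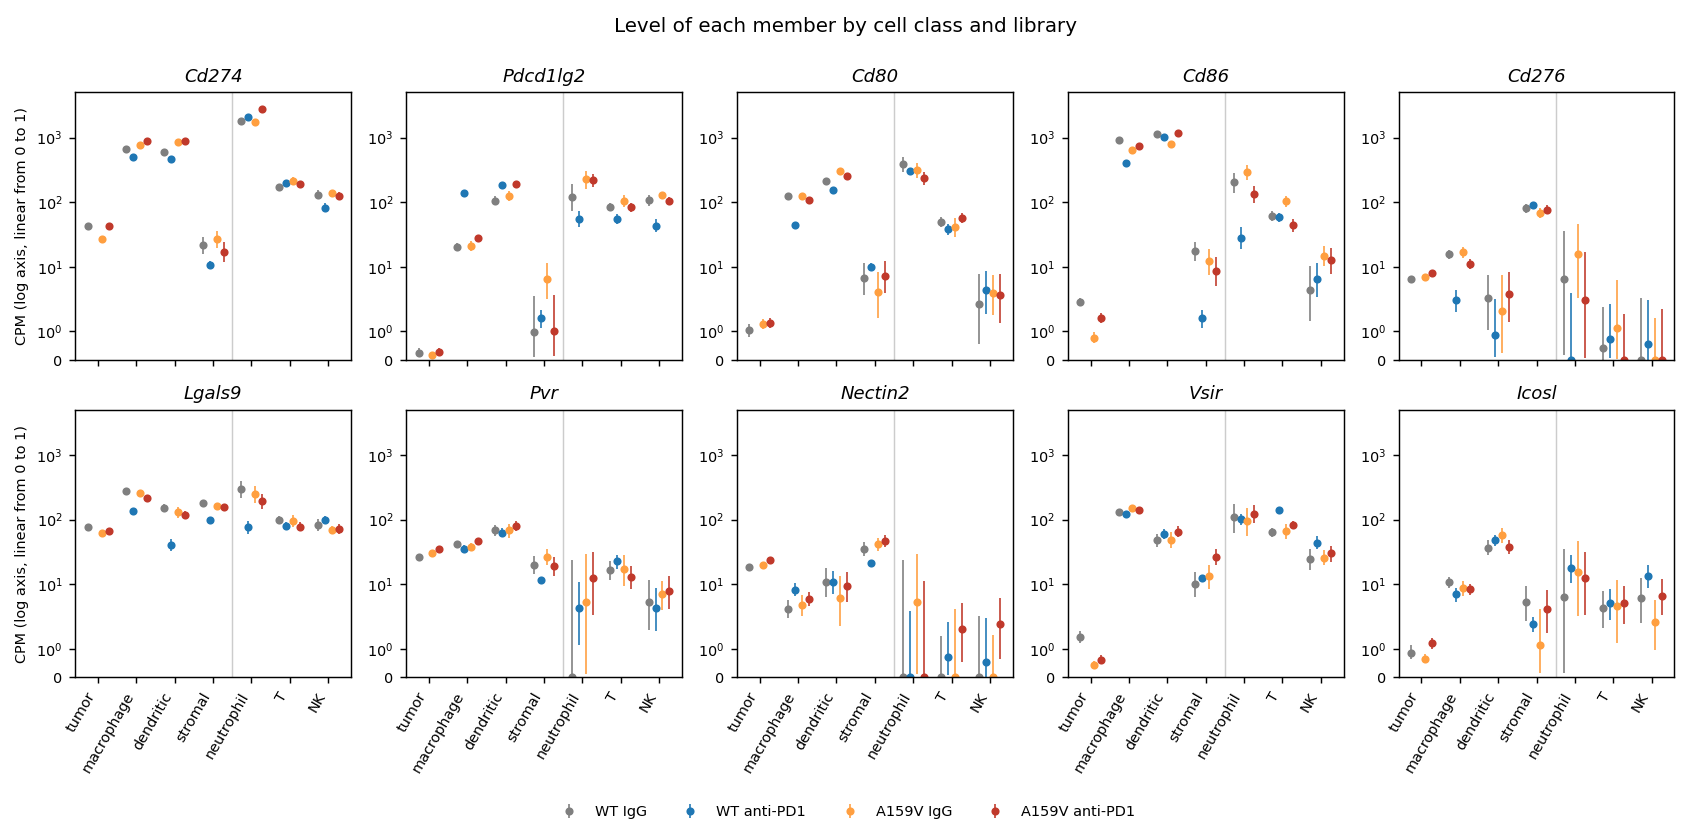
Level of each of the 10 ligands (CPM of summed UMIs on a log axis that is linear below 1 CPM) in tumor-like, macrophage-like, dendritic-like and stromal-like cells of the 4 libraries, and beside them in neutrophil-like, T-like and NK-like cells. Bars are exact Poisson 95% intervals, which cover counting error only. Tumor-like cells have no point in WT anti-PD1. Cd274 lies between 473 and 893 CPM in macrophage-like and dendritic-like cells and between 26.9 and 42.8 CPM in tumor-like cells, and Pdcd1lg2 of macrophage-like cells stands at 141 CPM in WT anti-PD1 against 20.6 to 28.1 CPM elsewhere.

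In droplets, free RNA of lysed cells gives UMIs in cells that do not express a gene, so the low levels were set beside macrophage markers measured in the same cells. Cd274 of tumor-like cells was 6.398%, 3.45% and 4.73% of its macrophage-like level in WT IgG and in the 2 A159V libraries, IgG first, while 10 macrophage markers had medians of 0.318%, 0.192% and 0.324% of theirs and maxima of 2.95%, 2.001% and 2.20%. Tumor-like Cd274 was above the highest marker in each of the 3 libraries. The markers of neutrophils, which had more Cd274 than macrophage-like cells, summed to 21.8, 39.9 and 43.0 CPM in tumor-like cells (8 markers). Cd86 of tumor-like cells was 0.314%, 0.119% and 0.2202% of its macrophage-like level, at or below the marker median in each, and is read as background. Pdcd1lg2, Cd80 and Vsir lay between the marker median and maximum. In stromal-like cells Cd274 (3.25%, 2.15%, 3.42% and 1.90% over the 4 libraries) and Cd86 (1.90%, 0.397%, 1.87% and 1.19%) stayed below the highest marker (8.01%, 7.62%, 7.56% and 7.52%), so neither could be told apart from stray macrophage RNA there.

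Tumor-like cells were sequenced far deeper than the myeloid cells, with a median of 29632 to 42234 UMIs against 2001 to 3675 in macrophage-like cells, and shares of cells with a UMI were therefore taken after thinning each cell to 1500 UMIs, with exact (Clopper-Pearson) 95% intervals. Cd274 was then found in 6.05% (5.05% to 7.18%) of tumor-like cells in WT IgG, 4.08% (3.38% to 4.88%) in A159V IgG and 5.72% (4.76% to 6.81%) in A159V anti-PD1. Without thinning the shares were 49.6%, 43.5% and 62.5%. In macrophage-like cells the thinned shares were 47.7%, 42.1%, 52.0% and 56.9%. Stromal-like cells, in which the Cd274 level was within the range of stray macrophage RNA, had shares of 1.73% to 5.22% at a median of 7901 to 14527.5 UMIs, and in the 3 libraries with both classes they were 5.22%, 3.41% and 2.48% against the tumor-like 6.05%, 4.08% and 5.72%. Stromal-like cells carried more of the macrophage markers than tumor-like cells, with a highest marker of 7.52% to 8.01% against 2.001% to 2.95%, so their share is not a like-for-like background.

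Within the dendritic-like cells the ligands were divided unevenly. Of the sub-clusters that could be named from fixed markers, 280 cells were mature Ccr7-like, 911 were Cd209a-like and 122 were conventional type 1-like. The mature cells were led by Ccl22 and Ccr7, genes of dendritic cells that migrate to lymph nodes. Macrophage-like and dendritic-like cells were sub-clustered together. Of the Cd209a-like cells 92.3% were of the dendritic-like class, against 100% of the mature and conventional type 1-like cells. Since the cells were clustered with other myeloid genes, the contrasts between sub-clusters are descriptions. Cd274 was 1485 CPM with IgG and 1223 with anti-PD1 in WT tumors, and 1979 with IgG and 1636 with anti-PD1 in A159V tumors in mature cells. In Cd209a cells Cd274 was 514 CPM with IgG and 400.0 with anti-PD1 in WT tumors, and 555 with IgG and 766 with anti-PD1 in A159V tumors, and mature cells were above by 1.09 to 1.83 (log2). Pdcd1lg2 was 209 CPM with IgG and 409 with anti-PD1 in WT tumors, and 287 with IgG and 373 with anti-PD1 in A159V tumors in mature cells. In Cd209a cells Pdcd1lg2 was 84.3 CPM with IgG and 167 with anti-PD1 in WT tumors, and 57.6 with IgG and 164 with anti-PD1 in A159V tumors, above by 1.18 to 2.30, and Cd80 was above by 1.13 to 2.31. Mature cells were thus higher in Cd274, Pdcd1lg2 and Cd80 in 4 of 4 libraries.

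The opposite order was seen for Cd86, at 894 CPM with IgG and 619 with anti-PD1 in WT tumors, and 718 with IgG and 728 with anti-PD1 in A159V tumors in mature cells. In Cd209a cells Cd86 was 1275 CPM with IgG and 1605 with anti-PD1 in WT tumors, and 905 with IgG and 1326 with anti-PD1 in A159V tumors, a difference of mature from Cd209a cells of -1.37 to -0.33 (log2). Lgals9 showed the widest gap, at 18.6 CPM with IgG and 2.47 with anti-PD1 in WT tumors, and 9.27 with IgG and 17.5 with anti-PD1 in A159V tumors in mature cells. In Cd209a cells Lgals9 was 199 CPM with IgG and 46.4 with anti-PD1 in WT tumors, and 181 with IgG and 140.1 with anti-PD1 in A159V tumors, a difference of -4.15 to -2.93. Vsir was lower by 1.21 to 2.85 on the log2 scale in mature cells. Cd80 and Cd86, which share their receptors, were therefore ordered oppositely over these sub-clusters, and so were Lgals9 and the PD-1 ligands. Conventional type 1 cells passed 50 cells in WT anti-PD1 only, and pooled over the libraries they had 179.8 CPM of Cd274, 383 CPM of Cd86 and 0 UMIs of Cd276.

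In single mature cells thinned to 1500 UMIs (226 cells, with 54 shallower cells left out), Cd274 was found in 87.6% (82.6% to 91.6%), Cd86 in 57.5%, Cd80 in 113 of the 226 cells and Pdcd1lg2 in 32.7%. Cd274 and Pdcd1lg2 were found together in 30.1% of them and Cd274 and Cd80 together in 45.1%. Since Cd274 was found in 87.6% of all these cells, most cells with Pdcd1lg2 or Cd80 would hold it without any link between the genes. A link was not tested. Among 792 Cd209a cells the corresponding shares were 43.8% for Cd274, 63.5% for Cd86, 20.1% for Cd80, 12.2% for Pdcd1lg2, 8.71% for Cd274 with Pdcd1lg2 and 11.2% for Cd274 with Cd80. In the Cd209a sub-cluster Klrd1 and Cd7, genes of lymphoid cells, were among the leading genes, and their part in these values was not tested.

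The macrophage-like cells also differed by sub-cluster. Many macrophage-like and dendritic-like cells, 1210, 568, 1329 and 1348 over the 4 libraries, fell in sub-clusters left without a name and are not ranked here. Sub-clusters of the same name were pooled, which gave 5 named macrophage and monocyte groups. Of these, C1q cells, led by the chemokine gene Cxcl9, had the highest Cd86 in 4 of 4 libraries. Cd86 in C1q cells was 1426 CPM with IgG and 968 with anti-PD1 in WT tumors, and 1037 with IgG and 1267 with anti-PD1 in A159V tumors. Some ranked values rest on under 50 cells, down to 20 for nonclassical monocyte-like cells in WT anti-PD1. Cd86 was 439 CPM with IgG and 225 with anti-PD1 in WT tumors, and 363 with IgG and 406 with anti-PD1 in A159V tumors in cells with Arg1, the arginine-consuming enzyme of suppressive macrophages. The difference of C1q over Arg1 cells was 1.51 to 1.70 (log2) in the 3 libraries with at least 50 cells of each, since C1q cells in WT anti-PD1 numbered 49. Cd274 was 621 CPM with IgG and 699 with anti-PD1 in WT tumors, and 728 with IgG and 1188 with anti-PD1 in A159V tumors in C1q cells. It was 634 CPM with IgG and 584 with anti-PD1 in WT tumors, and 854 with IgG and 1103 with anti-PD1 in A159V tumors in Arg1 cells and 787 CPM with IgG and 519 with anti-PD1 in WT tumors, and 919 with IgG and 900.2 with anti-PD1 in A159V tumors in classical Ly6c2 monocyte-like cells, where WT anti-PD1 had 40 cells. In each of these 3 groups both A159V libraries were above WT IgG. The Arg1 and Ly6c2 groups each pool several sub-clusters. An Arg1 sub-cluster took 65.8% of its cells from A159V anti-PD1, and the others took 89% and 82.1% from WT anti-PD1. The part of this mix in the values was not tested. In nonclassical monocyte-like cells, in contrast, A159V IgG was at 849 CPM and WT IgG at 925 CPM, a log2 ratio of -0.12 (-0.33 to 0.09). In cells with Mrc1 and Lyve1, markers of resident macrophages, pooled Cd274 was 304 CPM, and in WT anti-PD1, where 502 of these 692 cells came from, it was lower than in Arg1 cells. Lgals9 was higher in Ly6c2 monocytes than in Arg1 cells by 0.97 to 1.13 (log2).

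**Figure D2:**
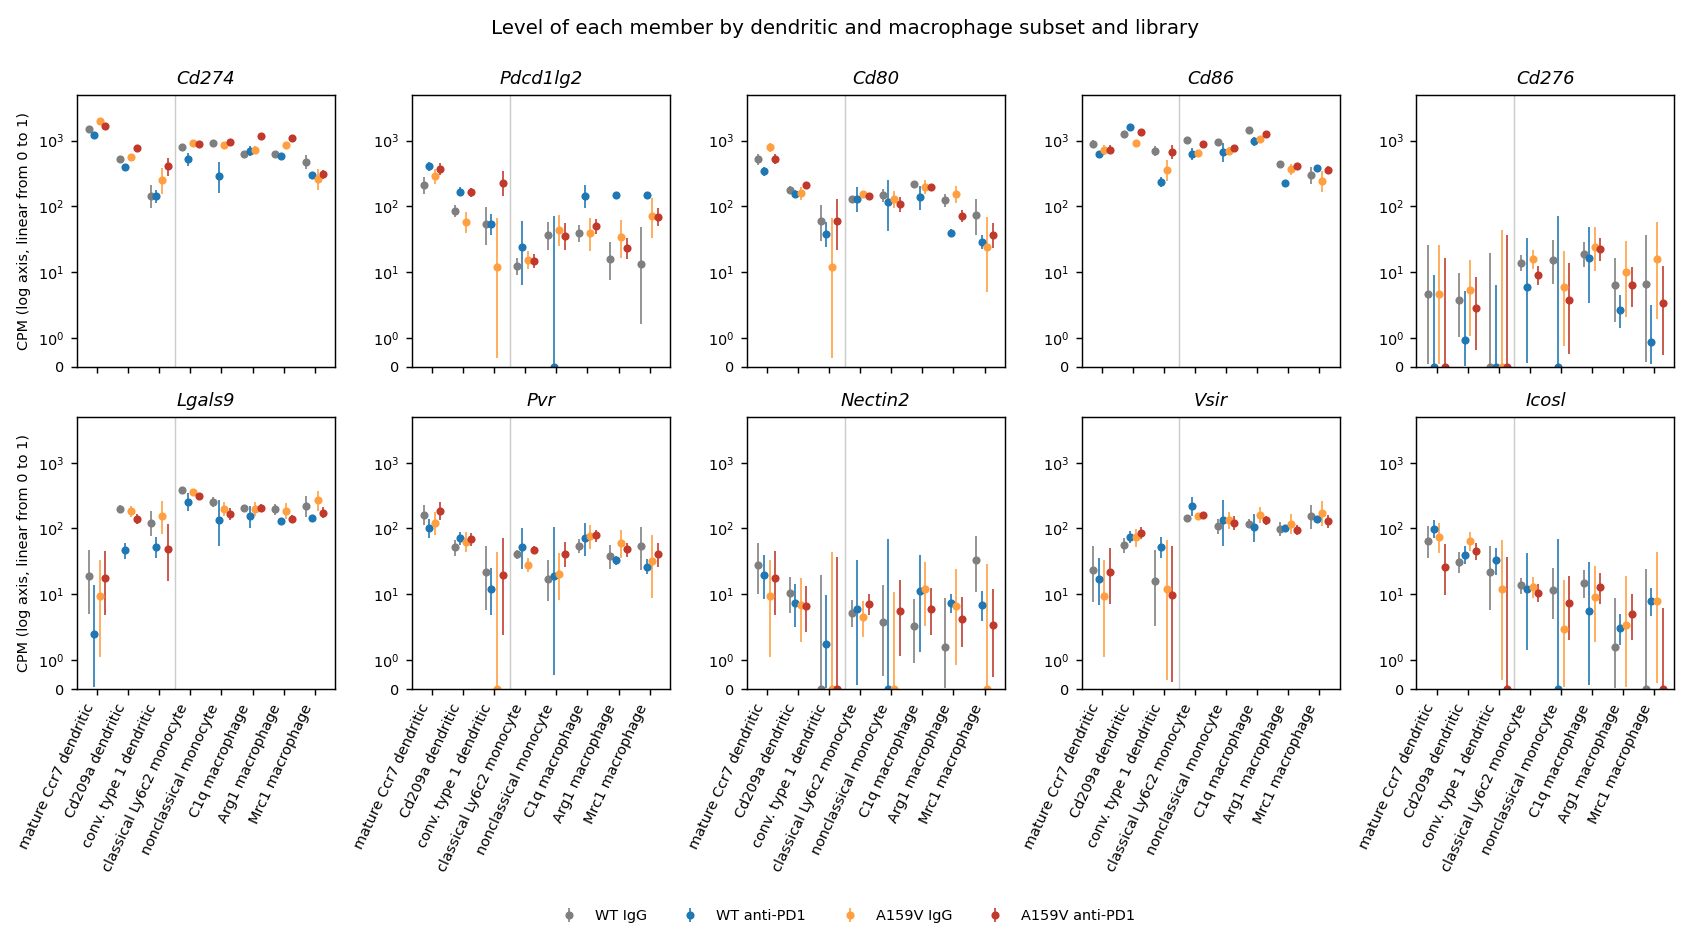
Level of the ligands (CPM on a log axis that is linear below 1 CPM) in the named dendritic-like and macrophage-like sub-clusters, 1 point per library. Sub-clusters of the same name are pooled. Some points rest on few cells, down to 20 for nonclassical monocyte-like cells in WT anti-PD1. Mature Ccr7 dendritic-like cells have Cd274 at 1223 to 1979 CPM against 400.0 to 766 CPM in Cd209a cells, whereas Lgals9 lies at 2.47 to 18.6 CPM in mature cells against 46.4 to 199 CPM.

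The comparison of A159V IgG with WT IgG asks how the ligands differed with the Rac1 A159V substitution in tumors under control antibody. In tumor-like cells Cd274 was lower, Lgals9 slightly lower, and Pvr and Nectin2 slightly higher. In macrophage-like and dendritic-like cells Cd274 was a little higher and Cd86 lower, and in stromal-like cells no interval of a ligand at or above 10 CPM excluded 0. No ligand that reached 10 CPM differed by 2-fold in any of the 4 classes. Ratios are log2 of CPM with 1 CPM added, and a ligand was counted where it differed by at least 2-fold (1 on the log2 scale) and reached 10 CPM in either library compared.

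In tumor-like cells 4 ligands reached 10 CPM and 0 of 4 differed by 2-fold, where 1.8% of all genes tested were at least 2-fold higher and 4.23% lower. Their median log2 ratio was -0.09, against -0.02 over all genes tested. The Cd274 ratio was -0.65 (-0.73 to -0.57), from 42.8 to 26.9 CPM, that of Lgals9 -0.30 (-0.35 to -0.24), that of Pvr 0.16 (0.07 to 0.24) and that of Nectin2 0.12 (0.02 to 0.22). The intervals hold counting error alone, so their distance from 0 says nothing of the spread between tumors.

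Tumor-like cells fell into 3 clusters with unequal shares of the libraries. Cluster 6 (led by Tafa1, Mmp11, Edil3 and Sox9) held 1527 of the 2029 tumor-like cells in WT IgG but 214 of 2804 in A159V IgG, cluster 2 (Dynap, Ptcra, Gdf15 and Areg) held 327 and 1513, and cluster 3 (Nppb, Il1rl1, Ereg and Cxcl10) held 175 and 1077. Cd274 was 28.6 CPM in WT IgG and 19.5 CPM in A159V IgG in cluster 2, 62.7 and 35.4 CPM in cluster 3, and 43.6 and 40.9 CPM in cluster 6. The ratios were -0.53 (-0.70 to -0.36), -0.81 (-0.96 to -0.65) and -0.09 (-0.31 to 0.13), so Cd274 was lower in A159V IgG in clusters 2 and 3, while the interval in cluster 6 held 0. Nectin2 was higher in A159V IgG in each cluster, at 0.57 (0.34 to 0.81), 0.82 (0.51 to 1.12) and 0.31 (0.04 to 0.59). Cd276 was also higher within each cluster, from 1.82 to 4.76 CPM in cluster 2, from 3.83 to 8.97 CPM in cluster 3 and from 7.98 to 17.7 CPM in cluster 6, with ratios of 1.03 (0.61 to 1.45), 1.05 (0.58 to 1.51) and 1.06 (0.73 to 1.40), whereas over the whole class it was 6.39 and 7.05 CPM. The summed stromal markers in tumor-like cells were 456 CPM in WT IgG against 124 and 97.4 CPM in the A159V libraries (10 markers). The macrophage markers were 34.2, 21.5 and 28.0 CPM (12 markers), and the tumor markers 1217, 1863 and 2147 CPM (10 markers). Among cells with at most 1 UMI of any other main lineage's markers (264 cells in A159V IgG and 174 in WT IgG) the Cd274 ratio was -1.15, past 2-fold. This limit leaves out deep cells more readily, and NK markers alone summed to 134 CPM in WT IgG and 131 CPM in A159V IgG. The depth of the cells kept was not examined, and no interval is given for this ratio. Without cluster 6, of which WT IgG held 81.7%, the Cd274 ratio was -0.62 and that of Lgals9 0.06.

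Known regulators of Cd274 transcription and protein stability, 13 genes listed with earlier results of these data known, all reached 10 CPM in tumor-like cells, and 0 of 13 differed by 2-fold, with a median log2 ratio of -0.47. Irf1 was 157, 91.3 and 147 CPM in the 3 libraries with tumor-like cells, and it encodes the interferon-induced factor that activates Cd274. Ifngr1, a subunit of the interferon-gamma receptor, was 36.0, 21.0 and 21.3 CPM. In A159V IgG over WT IgG the log2 ratios were -0.77 (-0.82 to -0.73) for Irf1 and -0.75 (-0.84 to -0.67) for Ifngr1, the sign seen for Cd274. Nfkb1, an NF-kB subunit, was 318, 186 and 235 CPM, with a ratio of -0.77 (-0.79 to -0.74). Cmtm6 was 12.9, 17.4 and 20.3 CPM, and Hif1a was 84.4, 113 and 124 CPM, so Cmtm6, which protects PD-L1 protein from degradation, and Hif1a were higher in A159V IgG, by 0.40 (0.29 to 0.51) and 0.42 (0.37 to 0.46). Of 20 other ligand genes of T and NK cells 5 reached 10 CPM, 0 differed by 2-fold, and Cd47, the signal that restrains phagocytosis, was 279.8, 212 and 272 CPM.

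In macrophage-like cells 9 ligands reached 10 CPM and 0 of 9 differed by 2-fold, against 0.521% of all genes higher and 0.483% lower. Cd86 was 917 CPM in WT IgG and 651 CPM in A159V IgG, a ratio of -0.49 (-0.55 to -0.44), and it was lower in 4 of the 5 macrophage-like clusters, with the exception of cluster 7 (led by Cxcl3, Mmp13 and Il1a, 0.19). Cd274 had a ratio of 0.22 (0.17 to 0.27) and Vsir one of 0.21 (0.09 to 0.33). The summed macrophage markers were 7342 CPM in WT IgG and 6342 CPM in A159V IgG.

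In dendritic-like cells 0 of 9 ligands at the minimum differed by 2-fold (3.26% of all genes higher, 2.77% lower). The ratios were 0.48 (0.35 to 0.62) for Cd274, 0.52 (0.29 to 0.74) for Cd80, 0.62 (0.09 to 1.14) for Icosl and -0.50 (-0.62 to -0.38) for Cd86, so again Cd86 was lower and Cd274 higher in A159V IgG. The mature Ccr7 cells numbered 98 of 347 dendritic-like cells in A159V IgG and 56 of 350 in WT IgG. Within mature cells the Cd274 ratio was 0.41 (0.21 to 0.62) and within Cd209a cells 0.11 (-0.09 to 0.31). Cd80 was likewise higher within mature cells, at 0.59 (0.24 to 0.93), and not within Cd209a cells, at -0.17 (-0.53 to 0.19), while the Icosl ratio was 0.18 (-0.84 to 1.20) in mature and 1.04 (0.38 to 1.70) in Cd209a cells. Cd86 was lower within both, at -0.31 (-0.62 to -0.01) and -0.49 (-0.64 to -0.35). In stromal-like cells 0 of 7 ligands differed by 2-fold (1.79% higher, 1.4% lower), with 134 and 178 cells behind the values.

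The comparison of WT anti-PD1 with WT IgG asks how the ligands differed with PD-1 blockade in tumors of wild-type cells, and it shares the WT IgG library with the comparison above. Macrophage-like cells of the WT anti-PD1 library had higher Pdcd1lg2 and lower Cd80, Cd86, Cd276 and Lgals9, each by more than 2-fold. Dendritic-like cells had higher Pdcd1lg2 and lower Lgals9, and stromal-like cells had lower Cd86. Tumor-like cells gave no value here.

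In macrophage-like cells 1 of 9 ligands was at least 2-fold higher and 4 of 9 at least 2-fold lower, against 8.06% and 6.23% of all genes tested, and the ligands' median log2 ratio was -0.57 against 0.07 over all genes. Pdcd1lg2 went from 20.6 to 141 CPM, a ratio of 2.72 (2.52 to 2.92). Cd80 had a ratio of -1.46 (-1.61 to -1.30), Cd86 of -1.20 (-1.25 to -1.14), Cd276 of -2.05 (-2.50 to -1.60) and Lgals9 of -1.01 (-1.11 to -0.92). The macrophage-like cells of these libraries were largely different clusters, with cluster 4 at 122 of 3015 cells in WT IgG and 1586 of 1940 in WT anti-PD1. The ratios were therefore also taken within clusters 1, 4, 7 and 14, which had at least 50 cells in both libraries.

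Within clusters, Pdcd1lg2 was higher in all 4, at 1.36 (0.87 to 1.85) in cluster 1, 3.33 (2.39 to 4.26) in cluster 4, 1.69 (0.90 to 2.47) in cluster 7 and 1.70 (0.45 to 2.95) in cluster 14. Cd86 was lower by point estimate in all 4, at -0.77 (-0.93 to -0.60), -0.63 (-0.80 to -0.47), -0.61 (-0.87 to -0.34) and -0.20 (-0.51 to 0.11), and none of these reached 2-fold. Cd80 was at -1.75 (-2.37 to -1.12), -1.28 (-1.68 to -0.88), -0.58 (-1.12 to -0.05) and -0.22 (-1.11 to 0.67), past 2-fold in clusters 1 and 4. Lgals9 was at -0.27 (-0.57 to 0.02), -0.40 (-0.71 to -0.10), 0.04 (-0.33 to 0.41) and -0.46 (-1.06 to 0.14). Cd274, lower over the whole class at -0.42 (-0.47 to -0.36), had the opposite sign within clusters 1, 4 and 7, at 0.32 (0.18 to 0.47), 0.22 (0.03 to 0.42) and 0.59 (0.43 to 0.75), and was lower in cluster 14 at -1.11 (-1.73 to -0.49). Pdcd1lg2 therefore kept its direction within each cluster, whereas the class-wide Cd274 ratio did not. With cluster 4 left out (354 and 2893 cells) the Pdcd1lg2 ratio was 1.62 and the Cd274 ratio 0.14, and of the 4 lower ligands Cd276 alone stayed past 2-fold. Stromal markers in macrophage-like cells summed to 717 CPM in WT anti-PD1 against 52.9 CPM in WT IgG. Among cells with at most 1 UMI of any other main lineage's markers (267 and 1588 cells), the Pdcd1lg2 ratio was 2.61. In these cells Cd274 was at -1.04 and Lgals9 at -1.57, both past 2-fold lower. The part of the stromal markers alone in these ratios was not tested.

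In dendritic-like cells 0 of 9 ligands were at least 2-fold higher and 1 of 9 (Lgals9) at least 2-fold lower, where 9.98% and 5.57% of all genes were. Lgals9 went from 152 to 40.4 CPM, a ratio of -1.89 (-2.23 to -1.55), and was lower both in cluster 11 (led by Cd209a), at -1.83 (-2.17 to -1.48), and in cluster 16 (Ccl22 and Ccr7), at -3.55 (-5.76 to -1.34). Pdcd1lg2 had a ratio of 0.83 (0.57 to 1.09) and was higher in both clusters, at 0.85 (0.52 to 1.17) and 0.73 (0.31 to 1.16). Over the class Cd80, Cd274 and Cd86 were lower by less than 2-fold, at -0.45 (-0.66 to -0.23), -0.36 (-0.49 to -0.24) and -0.16 (-0.25 to -0.07). Cd86 did not keep this sign within the sub-clusters, with 0.33 (0.23 to 0.43) in Cd209a cells, where it went from 1275 to 1605 CPM, and -0.53 (-0.80 to -0.26) in mature cells. The median log2 ratio over all genes tested in this class was 0.21, and median-of-ratios scaling shifted each value by 0.13. Macrophage markers in dendritic-like cells summed to 1444 CPM in WT IgG and 539 CPM in WT anti-PD1. Dendritic markers summed to 1894 and 3505 CPM, and NK markers to 416 and 124 CPM. Cells with at most 1 UMI of any other main lineage's markers, macrophage markers aside, numbered 50 in WT anti-PD1 and 154 in WT IgG. Their ratios were -0.93 for Lgals9, short of 2-fold, 0.12 for Cd274, -1.07 for Pvr and 1.21 for Pdcd1lg2. The part of any single marker list in the ratios was not tested.

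In stromal-like cells 0 of 7 ligands were at least 2-fold higher and 1 of 7 (Cd86) lower, against 4.63% and 5.13% of all genes. The Cd86 ratio was -2.83 (-3.36 to -2.31), from 17.4 to 1.58 CPM, both within the range of stray macrophage RNA, and with a minimum of 50 CPM in place of 10 CPM it was not counted. Cd274, also within the range of stray macrophage RNA, had a ratio of -0.95 (-1.38 to -0.52). Lgals9, Pvr and Nectin2 were lower by less than 2-fold too, at -0.85 (-1.01 to -0.70), -0.73 (-1.18 to -0.29) and -0.71 (-1.05 to -0.37), and Cd276, the ligand highest in this class, had a ratio of 0.17 (-0.05 to 0.39). All the stromal-like clusters took most of their cells from WT anti-PD1.

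**Figure D3:**
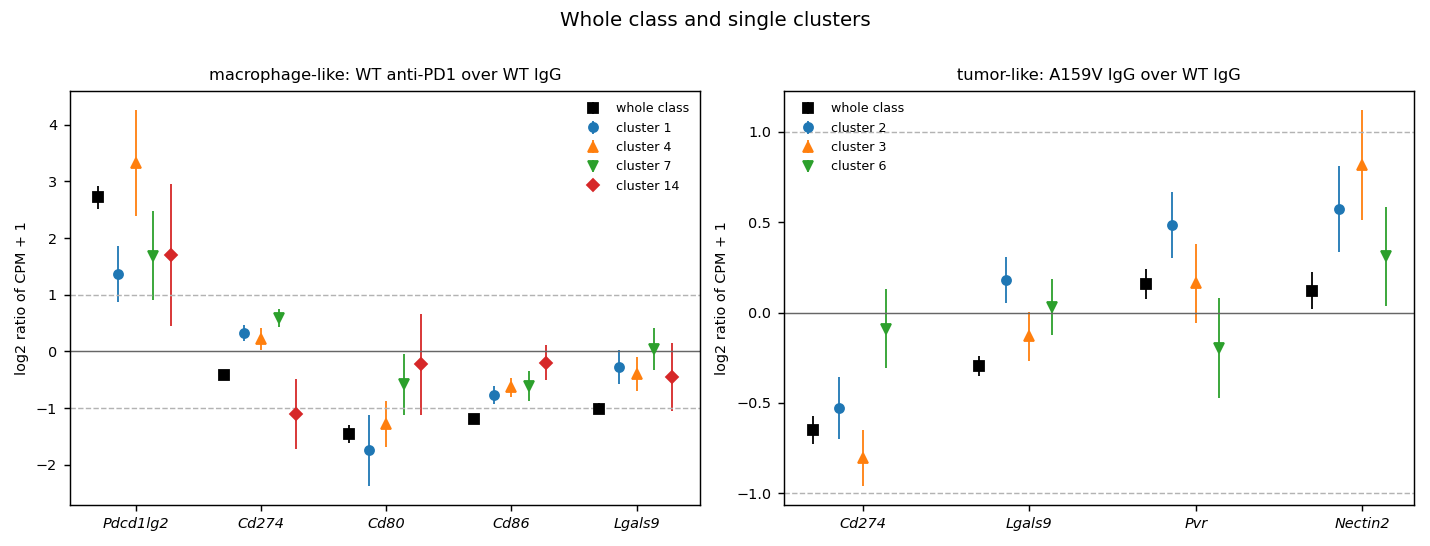
Log2 ratios of the ligands within single clusters beside those of the whole class, with 95% intervals that cover counting error only. For WT anti-PD1 over WT IgG in macrophage-like cells, Pdcd1lg2 lies above 0 in each cluster (1.36 to 3.33), while Cd274 lies at -0.42 for the class but above 0 in clusters 1, 4 and 7.

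The comparison of A159V anti-PD1 with A159V IgG asks the same question in tumors of mutant cells, and it shares the A159V IgG library with the first comparison. Tumor-like cells had higher Cd274 and slightly higher Pvr, Nectin2 and Lgals9. Macrophage-like cells had slightly higher Cd274 and Cd86, dendritic-like cells had higher Pdcd1lg2 and Cd86, and no ligand that reached 10 CPM differed by 2-fold in any class.

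In tumor-like cells 0 of 4 ligands at the minimum differed by 2-fold, as did 0.139% of all genes in the higher direction and 0.0465% in the lower. Cd274 went from 26.9 to 42.3 CPM, a ratio of 0.63 (0.56 to 0.71), and was higher within each of the 3 clusters, at 0.38 (0.25 to 0.51), 0.50 (0.41 to 0.60) and 0.42 (0.14 to 0.70). Among cells with at most 1 UMI of any other main lineage's markers (135 and 264 cells) the Cd274 ratio was 1.10, past 2-fold. Here too the limit leaves out deep cells more readily, and no interval is given for this ratio. Pvr, Nectin2 and Lgals9 were higher by smaller amounts, at 0.23 (0.16 to 0.30), 0.23 (0.14 to 0.31) and 0.11 (0.06 to 0.16). Among the regulators of Cd274 the ratio was 0.68 (0.64 to 0.72) for Irf1, and that of Ifngr1 was 0.02 (-0.06 to 0.11). Irf1 was thus higher with Cd274 in the treated mutant library, and Ifngr1 was level.

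In macrophage-like cells 0 of 8 ligands differed by 2-fold (0.7% of all genes higher, 0.28% lower). The ratios were 0.20 (0.15 to 0.25) for Cd274, 0.17 (0.12 to 0.23) for Cd86, 0.41 (0.13 to 0.69) for Pdcd1lg2, -0.21 (-0.34 to -0.08) for Cd80, -0.27 (-0.36 to -0.18) for Lgals9 and -0.58 (-0.93 to -0.24) for Cd276. Cd274 was higher within all 5 clusters, by 0.14 to 0.48, whereas of the finer sub-clusters C1q cells had 0.71 (0.51 to 0.90) and Ly6c2 monocytes -0.03 (-0.10 to 0.05). In dendritic-like cells 0 of 8 differed by 2-fold (2.76% higher, 3.25% lower), with ratios of 0.62 (0.31 to 0.92) for Pdcd1lg2, 0.55 (0.43 to 0.67) for Cd86, -0.28 (-0.50 to -0.07) for Cd80 and -0.57 (-1.09 to -0.06) for Icosl. Within Cd209a cells Pdcd1lg2 had a ratio of 1.49 (0.96 to 2.02) and within mature cells 0.37 (-0.10 to 0.85). Cd80 had opposite signs within them, at 0.40 (0.04 to 0.75) in Cd209a cells and -0.56 (-0.90 to -0.22) in mature cells. Cd86 was at 0.55 (0.41 to 0.70) and 0.02 (-0.30 to 0.33), and Icosl at -0.51 (-1.11 to 0.10) and -1.46 (-2.77 to -0.15), in the same order. In stromal-like cells 0 of 7 differed by 2-fold (2.77% higher, 4.27% lower), and Vsir had the largest ratio, 0.95 (0.29 to 1.62).

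**Figure D4:**
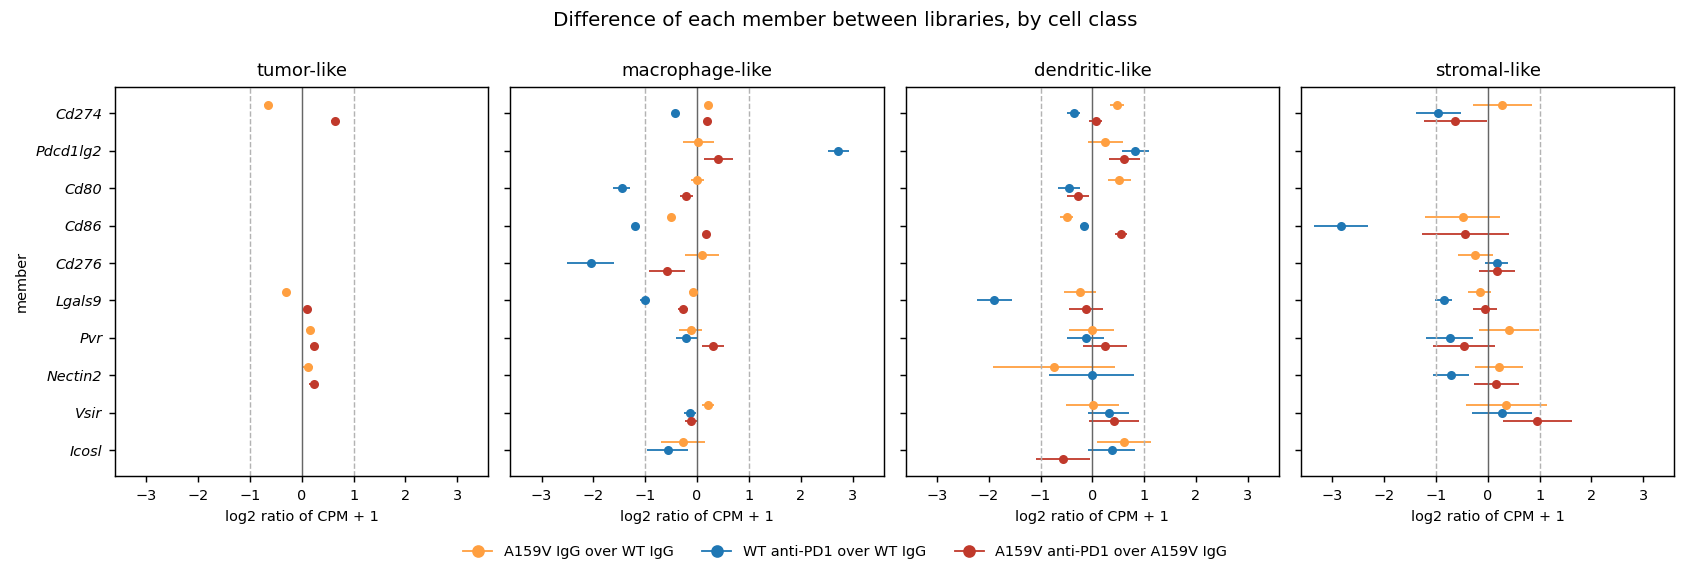
Log2 ratio of each ligand in the 3 comparisons (the mutation under IgG, and anti-PD1 over IgG in WT and in A159V tumors) by class, with 95% intervals that cover counting error only, and dashed lines at 2-fold. Ratios past 2-fold with at least 10 CPM occur in WT anti-PD1 over WT IgG, as for Pdcd1lg2 in macrophage-like cells at 2.72, and tumor-like Cd274 lies at -0.65 and 0.63 in the comparisons that have a value.

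The receptors of these ligands were measured in the T-like cells (568, 773, 359 and 606 cells) and NK-like cells (218, 442, 480 and 364 cells) of the same 4 libraries. Pdcd1, which encodes PD-1, was 166, 215, 141 and 151 CPM in T-like cells and 8.77, 9.78, 17.9 and 13.8 CPM in NK-like cells. Ctla4 was 909.8, 846, 881 and 919 CPM in T-like cells and Cd28 was 402, 811, 332 and 391.8 CPM. The activating receptor of Cd80 and Cd86 was thus highest in WT anti-PD1. The intervals of the inhibitory one, 812 to 881 CPM in WT anti-PD1 and 820.0 to 945 CPM in A159V IgG, overlapped. Cd226, the activating receptor of Pvr and Nectin2, was 142, 448, 123 and 157 CPM in T-like cells and 68.4, 171, 32.4 and 54.7 CPM in NK-like cells, again highest in WT anti-PD1. Tigit, the inhibitory receptor of the same ligands, was 64.1, 78.5, 53.1 and 71.0 CPM in T-like cells, and Cd96 was 88.7, 95.9, 79.1 and 75.0 CPM. Havcr2 was 182, 435, 191 and 226 CPM in T-like cells, and Icos was 644, 1123, 494 and 777 CPM.

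Of the wider pathway lists (20 other ligands, 13 receptors and 13 regulators of Cd274), no gene passed 2-fold in tumor-like cells in either comparison with a value, and log2 ratios are given in parentheses for those that did in other classes. In macrophage-like cells of A159V IgG over WT IgG, 11 other ligands, 2 receptors and 12 regulators reached 10 CPM, and Cadm1, an adhesion molecule, was the gene past 2-fold, at -1.14. Of all genes tested there, 0.521% were at least 2-fold higher and 0.483% lower. In macrophage-like cells of WT anti-PD1 over WT IgG, 12 other ligands, 4 receptors and 12 regulators reached 10 CPM. Of all genes tested, 8.06% were at least 2-fold higher and 6.23% lower. Cd200, a ligand that restrains myeloid cells (1.10), Cd226 (1.71) and Lag3 (1.15) were at least 2-fold higher, Ceacam1 (-1.30) and Havcr2 (-2.13) at least 2-fold lower, and 0 of the 12 regulators differed by that much. T markers in macrophage-like cells summed to 14.8 CPM in WT anti-PD1 and 12.3 CPM in WT IgG, and their part in the receptor values was not tested. In A159V anti-PD1 over A159V IgG, Cd200 was again past 2-fold in macrophage-like cells, at 1.41, where 0.7% of all genes were higher and 0.28% lower.

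In dendritic-like cells of A159V IgG over WT IgG, 14 other ligands, 9 receptors and 12 regulators reached 10 CPM. Of all genes tested, 3.26% were at least 2-fold higher and 2.77% lower. The costimulatory ligands Cd70 (2.05) and Tnfsf4 (1.32) and the receptors Pdcd1 (1.32) and Cd96 (3.03) were at least 2-fold higher and Cadm1 (-1.65) lower. T markers in these cells summed to 194 CPM in A159V IgG and 133 CPM in WT IgG, and their part in the receptor values was not tested. In WT anti-PD1 over WT IgG, 13 other ligands, 8 receptors and 13 regulators reached 10 CPM in dendritic-like cells. Of all genes tested, 9.98% were at least 2-fold higher and 5.57% lower. Cadm1 (1.75), Cd226 (1.10), Icos (1.90), Lag3 (1.04), Jak2 (1.04) and Cmtm4 (1.25) were at least 2-fold higher and Tnfsf4 (-1.37) lower. T markers summed to 103 CPM in WT anti-PD1 and 133 CPM in WT IgG, and their part in the Cd226, Icos and Lag3 values was not tested. In A159V anti-PD1 over A159V IgG, Cd70 (-2.30) and Cd96 (-2.57) were at least 2-fold lower, where 2.76% of all genes were higher and 3.25% lower. In stromal-like cells Tnfsf18, a costimulatory ligand of the TNF family, was past 2-fold in A159V IgG over WT IgG (-1.98) and, with Lgals3 (-1.08), in WT anti-PD1 over WT IgG (-3.45), while Icam1 (1.02) and Ctla4 (1.16) were higher in A159V anti-PD1 over A159V IgG. Of all genes tested in these comparisons, in that order, 1.79%, 4.63% and 2.77% were at least 2-fold higher and 1.4%, 5.13% and 4.27% lower. T markers in stromal-like cells summed to 40.0 CPM in A159V IgG and 27.3 CPM in A159V anti-PD1, and their part in the Ctla4 value was not tested.

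Over 29 profiles of a class in a library with at least 50 cells, the genes most like each ligand in log2(CPM + 1) were found by Pearson correlation, as a description, since the profiles share libraries and cell classes. For Cd274 they were Snx20 (r = 0.976), Dclre1c (0.968) and Gm29282 (0.966). For Pdcd1lg2 they were Jaml (0.937), Dennd1c (0.932) and Bcl2a1b (0.929). For Cd80 they were Samhd1 (0.952), Pmaip1 (0.944) and Rasgrp4 (0.943). For Cd86 they were Cd83 (0.973), Ctss (0.956) and Ptpro (0.955). The stromal ligands had Nxpe4 (0.917), Laptm4a (0.916) and Ace (0.896) for Cd276 and Tsen34 (0.935), Pdia5 (0.913) and Lima1 (0.902) for Nectin2. The closest genes were Plcb1 (0.862), Xdh (0.792) and Plekhg1 (0.787) for Lgals9, Dtx2 (0.882), Gdi2 (0.853) and Tnip2 (0.850) for Pvr, Cflar (0.935), Osbpl8 (0.931) and Arhgap26 (0.924) for Vsir, and Gm20513 (0.882), B3gnt5 (0.875) and Dapp1 (0.856) for Icosl. Lgals9 had the lowest of these leading correlations.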

How the data were processed

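Droplet-based 3′ single-cell RNA sequencing had been run on 4 libraries, 1 per group, grouped by the genotype and treatment in the labels. The authors deposited filtered feature-by-barcode matrices of whole UMI counts per gene and cell, made with Cell Ranger (version 7.2.0 in the file header, 5.0.1 in the submitters' processing notes) on mm10 with intronic reads. These counts precede the background and doublet removal that the study describes, so both affect the values here. Cells with more than 500 genes were kept, doublets were called per library against simulated doublets at a rate of 0.8% per 1000 cells, and removed (5.47% to 7.11% of cells). Cells were clustered together without integration of the libraries (2000 variable genes, the ligands and pathway genes left out, 20 principal components, Leiden resolution 1) and named from marker lists, needing at least 3 detected markers.

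For each class, the UMIs of its cells in 1 library were added up and expressed as CPM with exact Poisson 95% intervals. Ratios were log2((CPM + 1)/(CPM + 1)) with delta-method intervals, a class in a library needed at least 50 cells, and a gene counted as differing at 2-fold or more where either library reached 10 CPM. With 1 library per group no test was run and intervals cover counting error only. Depth was 54402632 to 125227747 UMIs per library, and a count of 0 allows up to 3 UMIs. Shares of cells were thinned to 1500 UMIs per cell. No column of another series was used. The named genes were all 10 ligands, the 3 genes of highest Pearson correlation with each, and, of the pathway lists, receptors and any gene past 2-fold in tumor-like cells, with genes past 2-fold in other classes and regulators named after their values were seen. Members, lists and markers were chosen with earlier results of these data known. The alternatives covered the gene minimum, mitochondrial UMIs, doublets, resolution, a gate on marker UMIs, scaling, pseudocount, averaging, cells of mixed markers, deep cells and the CPM minimum. Some items are not reported here. Scripts were tested on simulated data. Python 3.11.15, numpy 2.4.6, scipy 1.17.1, pandas 2.3.3, scikit-learn 1.9.0, leidenalg 0.10.2, igraph 0.11.9 and matplotlib 3.10.9 were used.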

Additional observations from a re-analysis of the deposited data

Results flagged for a closer look

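The effects of anti-PD1 in WT and in A159V tumors had opposite signs for 4 values, with intervals of counting error on either side of 0. With 1 library per group the differences were not tested. In macrophage-like cells Cd274 had a log2 ratio of -0.42 in WT and 0.20 in A159V, a difference of -0.61, Cd86 had -1.20 and 0.17, a difference of -1.37, and Pvr had -0.21 and 0.30, a difference of -0.51. In dendritic-like cells Cd86 had -0.16 and 0.55, a difference of -0.71. The opposite sign was not seen within Cd209a dendritic-like cells, where Cd86 had 0.33 in WT and 0.55 in A159V, and in mature cells it had -0.53 and 0.02. Macrophage-like Pvr in WT ran from -0.72 to 0.0039 over 12 alternatives, with the sign turned by a mean of CPM per cell. For Cd274 the WT ratio was above 0 within macrophage-like clusters 1, 4 and 7, as in A159V. This WT ratio was 0.14 when cluster 4, of which the WT anti-PD1 library held 74.1%, was left out. Among macrophage-like cells with at most 1 UMI of any other main lineage's markers it was -1.04.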

How the results depend on the processing

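No paired analysis was possible because each group was 1 library. Over 12 alternatives tumor-like Cd274 kept its sign, at -1.15 to -0.58 for the mutation under IgG and 0.57 to 1.10 for anti-PD1 in A159V tumors, as did macrophage-like Pdcd1lg2 in WT anti-PD1 over WT IgG (1.62 to 2.83), while macrophage-like Cd274 there ran from -1.04 to 0.14. Counts of ligands past 2-fold moved in 21 of 280 cases, and the cause was not tested. In A159V IgG over WT IgG, tumor-like lower went from 0 to 1 with doublets kept (Cd86) and in cells with at most 1 UMI of other lineages' markers (Cd274), dendritic-like lower to 1 with a mean of CPM per cell (Nectin2), and stromal-like lower to 1 with doublets kept (Cd80), the mean per cell (Cd86), those marker-poor cells (Cd274) and the deepest 5% of cells left out (Cd86). In WT anti-PD1 over WT IgG, macrophage-like lower went from 4 to 1 without the cluster of which 1 library held at least 70% (an alternative chosen after seeing the data, 354 and 2893 cells). Dendritic-like higher went from 0 to 1 with the gate (Vsir) and in marker-poor cells (Pdcd1lg2). Stromal-like lower went from 1 to 2 with doublets kept or the deepest cells left out (Cd274 and Cd86), to 3 with the gate (with Pvr) and to 0 at 50 CPM, and higher from 0 to 3 with the gate (Cd80, Cd276 and Vsir) and 1 in marker-poor cells (Cd80). For anti-PD1 in A159V tumors, the tumor-like count of higher ligands went from 0 to 1 in marker-poor cells (Cd274), dendritic-like higher to 1 (Vsir) and lower to 2 (Lgals9 and Icosl) with the gate, and stromal-like higher to 1 with the gate and in marker-poor cells (Vsir). Single ratios moved in 127 of 1290 cases, and shares in 220 of 300, as thinning sets them. Stromal-like cells gave no value without their clusters held by 1 library, and tumor-like cells in WT anti-PD1 gave one only with doublets kept (59 cells, Cd274 1.35).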

Other observations

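Outside the 4 classes, neutrophil-like cells had the highest Cd274 of all classes with a value in each library, at 1806 CPM (1602 to 2029) with IgG and 2088 (1997 to 2181) with anti-PD1 in WT tumors, and 1766 (1583 to 1965) with IgG and 2729 (2553 to 2915) with anti-PD1 in A159V tumors, with 95, 564, 107 and 218 cells. After thinning to 1500 UMIs, Cd274 was found in 64.97% of those deep enough in WT anti-PD1, and in 92.3% and 90.9% in the A159V libraries, IgG first. Cd80 in these cells was 388 CPM with IgG and 306 with anti-PD1 in WT tumors, and 314 with IgG and 236 with anti-PD1 in A159V tumors.

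NK-like cells had Pdcd1lg2 at 107 CPM (88.8 to 128) with IgG and 43.5 (34.5 to 54.1) with anti-PD1 in WT tumors, and 129 (114 to 144) with IgG and 105 (90.1 to 122) with anti-PD1 in A159V tumors, above macrophage-like cells in 3 of 4 libraries and below them in WT anti-PD1. Endothelial-like cells, which passed 50 cells in WT anti-PD1 alone (183 cells), had Lgals9 at 266 CPM, Nectin2 at 67.8 CPM and Cd276 at 60.6 CPM, against 99.2, 21.2 and 90.4 CPM in stromal-like cells of that library. T-like cells had Vsir at 63.2 CPM with IgG and 143 with anti-PD1 in WT tumors, and 65.6 with IgG and 82.6 with anti-PD1 in A159V tumors.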
